A study of Mus musculus with 6 samples.

Results

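The 35 genes described here are known targets of hypoxia or of hypoxia-inducible factor 1 (HIF1) that encode no glycolytic enzyme or glucose or lactate transporter. They were chosen by name, and their probes were found through the RefSeq transcript that each probe was designed to; all 35 were on the array, among 22911 genes with a named probe. RNA from cultured mouse glial cells was measured on 6 one-colour Agilent arrays. Both groups were OS3 cells, a glial line from the brain of male C3H mice (newborn C3H/HeN in the methods) that had been immortalised with SV40. The 3 WT arrays held OS3 cells carrying the empty pcDNA3.1(+) vector, and the 3 IG27 arrays held OS3 cells transfected with the vector for histone H3.3 with the K27M mutation, the substitution of lysine 27 by methionine that is found in diffuse midline gliomas. Both were drug-selected lines and were grown for 2 days in the same medium, with 10% serum, insulin, 0.2% D-glucose and 5% CO2, and the labels name no low-oxygen treatment. The number of clones behind each line is not given in the sources used here, so a change shared by the 3 arrays of a line cannot be told apart from a property of that clone, and the labels do not say whether the arrays of a group came from separate cultures, so that p-values measure the spread between arrays. In such bulk samples, a change in the share of cells that express a gene and a change in RNA per cell cannot be told apart.

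In oxygenated cells, prolyl hydroxylases of the EGLN family mark the alpha subunits of HIF for recognition by VHL and destruction. When oxygen is scarce, or the hydroxylases are inhibited, the alpha subunit pairs with ARNT and binds short hypoxia response elements near its target genes. Outside glycolysis, these targets include secreted factors that act on vessels, mitochondrial proteins, pH regulators, collagen-modifying enzymes and enzymes of glycogen storage, and several of them are widely used as markers of the hypoxic zones of gliomas.

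Of the 35 genes, 24 were higher in IG27 cells, none was lower, 6 were not called and 5 could not be tested, because in neither group did a probe of theirs read well above background on all complete arrays. A gene was called at an adjusted p below 0.05 from limma with the Benjamini-Hochberg correction over 14898 genes. The lines differed widely: 30.5% of all genes tested were higher in IG27 cells, 40.0% were lower, 11.5% were higher by at least 2-fold and 11.7% lower by as much. A rise of that size was seen for 17 of the members. A gene that is only measurable in IG27 cells had to be higher there. No p-value is therefore given for a gene not well above background on any WT array. For the same reason, the members were also counted among the genes well above background in both groups. In that set of 26 members, 21 were higher, against 29.2% of the 13544 genes so measured, and 14 were higher by at least 2-fold, against 7.94%. Their median log2 fold change was 1.20, beside -0.08 for all genes in that set. Over the 30 members tested it was 1.5. The 2 groups of arrays were fully separated for 26 of these 30 members, against 75.7% of all genes (11283 of 14898). *Edn1*, *Nos2*, *Stc2* and *Ppp1r3c* are among the 26. They passed the filter only through IG27 cells, which favours such a separation.

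**Figure D1:**
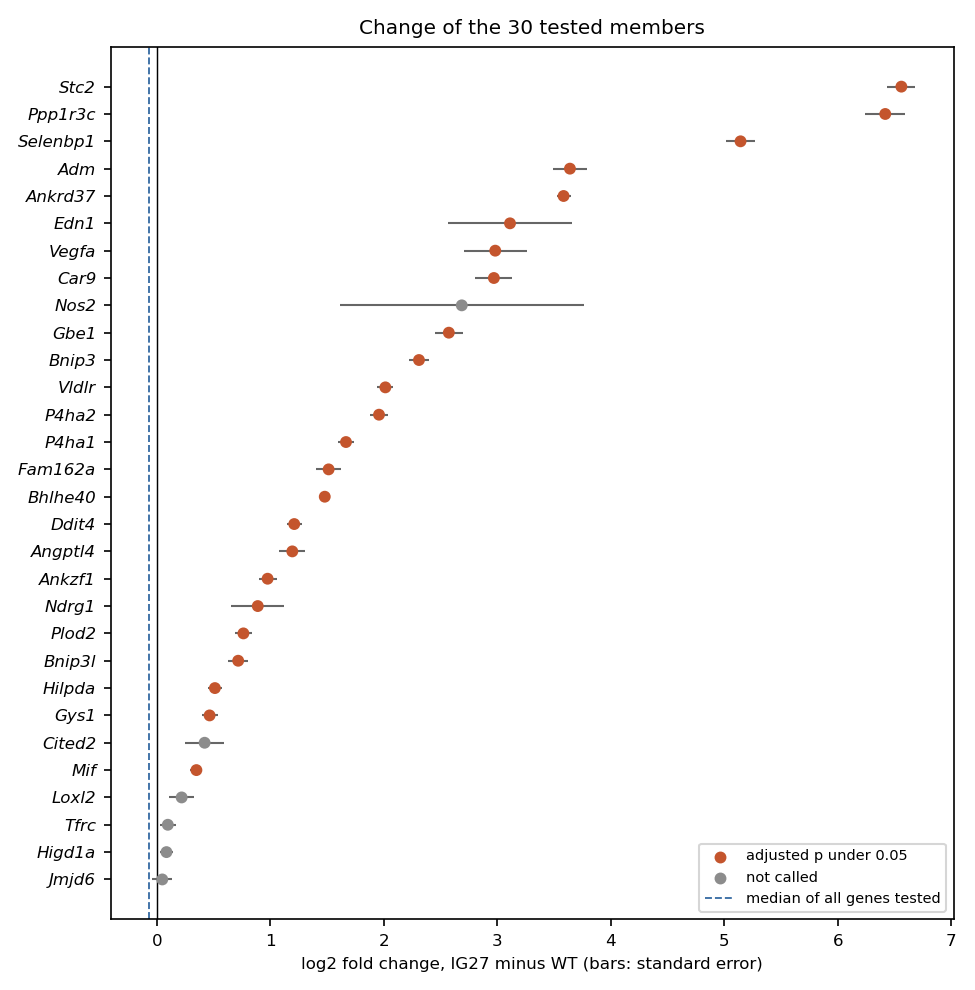
The log2 fold change of IG27 over WT cells (x axis) is plotted for each of the 30 members tested (y axis, sorted), as a point with a bar of 1 standard error from limma on 3 arrays a group; red points passed the threshold, grey points did not, and the dashed line is the median of all genes tested. The estimates ran from 0.05 for *Jmjd6* to 6.56 for *Stc2*, all to the right of 0, with the widest bar at *Nos2*; those of *Stc2*, *Ppp1r3c* and *Edn1* are set against WT readings at background, so that only a bound on their fold is known.

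The cells were checked against markers of their labelled glial type. Of 8 astrocyte and radial glia markers, 7 were detected on all WT arrays and 7 on both complete IG27 arrays, and of 7 oligodendrocyte lineage markers, 6 were in WT cells and 7 in IG27 cells. Some markers of other cell types were detected as well. In both lines these were the neuronal *Snap25* and *Tubb3*, the microglial *P2ry12* and *Csf1r*, the fibroblast and mural *Col1a1* and *Pdgfrb* and the endothelial *Pecam1*. The neuronal *Map2* and the microglial *Aif1* were detected on 1 WT array and both complete IG27 arrays. The fibroblast marker *Dcn* was detected on both complete IG27 arrays and no WT array, and *Col1a2* on 2 WT arrays and 1 IG27 array. *Tubb3*, *Csf1r*, *Col1a1*, *Pdgfrb* and *Pecam1* fell in IG27 cells (-2.63, -1.57, -0.92, -1.16 and -0.27 on the log2 scale). *P2ry12* rose by 0.49 (limma adjusted p at most 0.0254 for each of these genes). *Map2*, *Aif1* and *Dcn* were higher in IG27 cells but passed the filter only through those cells. The estimates for *Map2* (8.03) and *Aif1* (1.66) rest on WT readings near background, and *Dcn* was at least 3.32-fold higher. The endothelial markers *Cdh5*, *Tie1* and *Tek*, the neuronal markers *Rbfox3* and *Syt1*, the microglial markers *Cx3cr1* and *Ptprc* and the fibroblast marker *Lum* were at background in both. Their part in the members' changes was not tested. The *H3f3a* probe, which does not tell the mutant transcript from the endogenous one, read 0.26 lower on the log2 scale in IG27 cells (SE 0.08, adjusted p = 0.0237, limma). Arrays of a group correlated at 0.994 or higher over genes, and arrays of different groups at 0.902 to 0.905. On WT replicate 1, a stretch of the array with 6.59% of its probes read apart: 33.9% of the compared probes there lay over 0.5 below the other WT arrays on the log2 scale, against 0.89% elsewhere on that array. The probes of *Vegfa*, *Nos2*, *Ndrg1*, *Cited2* and *Jmjd6* lie in it, and the values of the first 4 without those spots are given beside their results. Other arrays held blocks that read apart too, with at most 2.83% of probes (WT replicate 3, where 20.3% of the compared probes were low). The *Vegfa* probe also lies in one on WT replicate 3, and the *Jmjd6* probe in ones on WT replicates 2 and 3. Those spots were kept.

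The upstream sequences of many members hold the core letters of the hypoxia response element. Promoter windows of 300 bases, 250 before and 50 after each transcription start, were read from RefSeq (GRCm38.p6) for 26 of the 35 genes (30 windows); *Ndrg1*, *Bnip3l*, *Lox*, *Plod2*, *Angptl4*, *Loxl2*, *Stc1*, *Bhlhe40* and *Nos2* had no entry. The core of the response element was searched as ACGTG or GCGTG on both strands (CACGT and CACGC when read on the other strand), with overlapping matches counted once. It was found in 24 of the 30 windows (80.0%), against 43.8% of all 32851 windows. Member windows were also rich in CpG, with a median of 23.5 against 7 in all windows, and each of these motifs holds a CpG. Among windows with 20 or more CpG, 15 of 16 member windows (93.8%) and 73.6% of all windows held a match, and among those with fewer, 9 of 14 (64.3%) and 33.0%. A match was present in 17 of 22 windows of members that were higher (77.3%) and in 7 of 8 windows of members that were not called or not tested (87.5%).

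First come 5 windows of members that rose by at least 2-fold and hold the motif, 250 bases up to the transcription start, with the motif in capitals. *Bnip3* (4 matches in its window) and *Ppp1r3c* (3) each hold the palindrome CACGTG, which reads as ACGTG on both strands. *Higd1a*, which was not called and holds a match, and *Gbe1*, which rose and holds none in this window, follow for contrast.
Car9, chr4:43506776-43507025 (plus strand): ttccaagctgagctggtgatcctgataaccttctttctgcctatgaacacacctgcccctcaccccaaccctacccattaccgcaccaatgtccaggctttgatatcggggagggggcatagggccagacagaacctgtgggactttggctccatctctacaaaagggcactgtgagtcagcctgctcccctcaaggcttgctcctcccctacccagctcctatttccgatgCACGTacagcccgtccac
Bnip3, chr7:138909507-138909756 (minus strand): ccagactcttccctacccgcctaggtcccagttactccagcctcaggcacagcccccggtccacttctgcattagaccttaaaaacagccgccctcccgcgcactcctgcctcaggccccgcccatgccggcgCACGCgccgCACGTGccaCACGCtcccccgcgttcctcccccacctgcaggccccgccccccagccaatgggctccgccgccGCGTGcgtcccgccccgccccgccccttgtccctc
Ankrd37, chr8:45999851-46000100 (minus strand): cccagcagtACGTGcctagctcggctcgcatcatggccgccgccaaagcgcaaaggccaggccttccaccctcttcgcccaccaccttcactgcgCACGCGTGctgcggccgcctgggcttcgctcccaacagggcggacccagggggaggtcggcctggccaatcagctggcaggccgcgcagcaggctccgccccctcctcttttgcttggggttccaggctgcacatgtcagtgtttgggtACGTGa
Stc2, chr11:31370062-31370311 (minus strand): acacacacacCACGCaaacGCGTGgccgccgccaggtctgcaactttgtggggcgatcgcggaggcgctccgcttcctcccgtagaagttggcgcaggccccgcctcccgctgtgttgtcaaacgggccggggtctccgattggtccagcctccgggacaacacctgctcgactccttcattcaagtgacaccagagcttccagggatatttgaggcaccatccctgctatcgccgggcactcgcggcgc
Ppp1r3c, chr19:36736605-36736854 (minus strand): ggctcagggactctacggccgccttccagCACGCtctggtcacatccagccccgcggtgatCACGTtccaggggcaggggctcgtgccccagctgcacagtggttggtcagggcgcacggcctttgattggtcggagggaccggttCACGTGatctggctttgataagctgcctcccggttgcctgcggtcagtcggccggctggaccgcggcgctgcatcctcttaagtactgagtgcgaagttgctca
Higd1a, chr9:121857797-121858046 (minus strand): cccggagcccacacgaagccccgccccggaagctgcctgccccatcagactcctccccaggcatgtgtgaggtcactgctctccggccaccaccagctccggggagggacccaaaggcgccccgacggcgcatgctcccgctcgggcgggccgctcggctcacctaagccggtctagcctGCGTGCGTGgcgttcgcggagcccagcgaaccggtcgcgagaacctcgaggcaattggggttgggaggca
Gbe1, chr16:70313699-70313948 (plus strand): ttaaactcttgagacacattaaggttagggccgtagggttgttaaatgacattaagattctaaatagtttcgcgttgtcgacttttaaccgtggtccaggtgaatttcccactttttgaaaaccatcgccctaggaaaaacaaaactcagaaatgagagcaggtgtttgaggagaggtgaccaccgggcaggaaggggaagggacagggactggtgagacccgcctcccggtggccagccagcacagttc

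**Figure D2:**
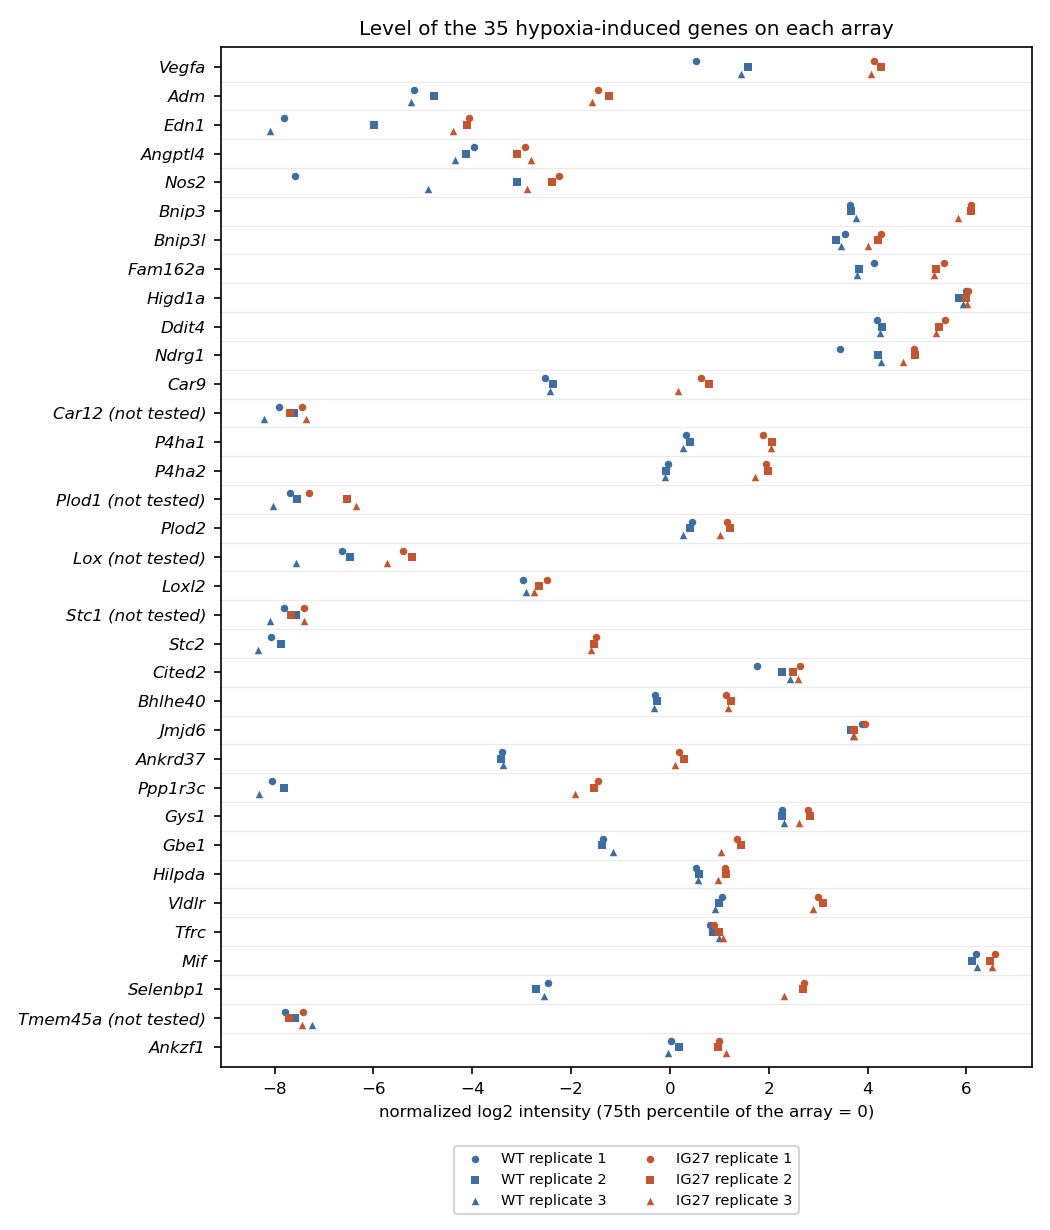
The normalized log2 intensity (x axis; 0 is the 75th percentile of each array) of the probe used for each of the 35 members (y axis) is shown for the 3 WT arrays (blue) and the 3 IG27 arrays (red), with the shape marking the replicate. *Bnip3*, *Ankrd37*, *Selenbp1*, *Stc2* and *Ppp1r3c* show the red points well clear of the blue ones, *Higd1a*, *Jmjd6* and *Tfrc* show them mixed, and the 5 members marked as not tested lie at the dim end. Levels of different genes are not comparable, since each comes from its own probe.

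Among the vessel-acting signals, 4 of the 5 members rose. *Vegfa* encodes the main growth factor for endothelial cells. Its normalized log2 intensity, where 0 is the 75th percentile of the array, was 0.52, 1.58 and 1.44 in WT replicates 1 to 3 and 4.13, 4.28 and 4.07 in IG27 replicates 1 to 3. All 3 IG27 arrays lay above all 3 WT arrays, and WT replicate 1 was the low one. The difference was 2.98 on the log2 scale, or 7.90-fold (SE 0.28, adjusted p = 1.33e-04, limma), and it was 2.65 (SE 0.09) without the spot of WT replicate 1, which lies in the stretch that read low. The other 3 *Vegfa* probes lay outside that stretch and differed by 2.94, 2.98 and 2.74, the dimmest of them not well above background in WT cells. *Kdr*, the receptor for Vegfa that is otherwise an endothelial marker, was not well above background on any WT array. It was at least 135-fold higher in IG27 cells, where *Cdh5*, *Tie1* and *Tek* stayed at background. Of the 5 endothelial markers, 1 was detected in WT cells and 2 in IG27 cells, and their summed log2 level was -2.53 to -2.36 in WT cells and 1.38 to 1.42 in IG27 cells. *Kdr* made up that rise, with a mean of 1.31 in IG27 cells, while *Pecam1*, the one detected in both lines, fell by 0.27 (SE 0.08, adjusted p = 0.0254, limma).

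*Adm* encodes adrenomedullin, a vasodilator peptide. Its level was -5.17, -4.78 and -5.24 in WT cells and -1.45, -1.24 and -1.58 in IG27 cells. The groups stood 3.64 apart on the log2 scale (12.5-fold, SE 0.15, adjusted p = 3.40e-06, limma). *Edn1*, which encodes the vasoconstrictor endothelin 1, had -7.81, -5.99 and -8.09 in WT cells, none of them well above background, and -4.07, -4.11 and -4.38 in IG27 cells. It was therefore at least 3.00-fold higher in IG27 cells, with WT replicate 2 nearest to the IG27 arrays. *Angptl4*, an inhibitor of lipoprotein lipase that also acts on vessels, went from -3.97, -4.13 and -4.34 to -2.94, -3.09 and -2.82, a rise of 1.19 (2.29-fold, SE 0.11, adjusted p = 1.53e-04, limma). *Nos2*, the inducible nitric oxide synthase, was the exception. WT replicate 1 read -7.58, WT replicates 2 and 3 read -3.10 and -4.90, and the IG27 arrays read -2.24, -2.38 and -2.90, so that the groups did not overlap but the WT arrays were widely spread. Its difference of 2.69 had an SE of 1.08 and a 95% interval from 0.06 to 5.32, and was not called (adjusted p = 0.0643, limma). Without the low spot of WT replicate 1 the difference was 1.49 (SE 0.55, adjusted p = 0.0556, limma).

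Of the 6 genes of mitochondrial turnover and stress adaptation, 5 rose. *Bnip3* and *Bnip3l* (also called Nix) encode related outer-membrane receptors through which damaged mitochondria are delivered to autophagy. For *Bnip3* the WT arrays gave 3.65, 3.67 and 3.76 and the IG27 arrays 6.09, 6.10 and 5.82. This was a rise of 2.31 on the log2 scale (4.95-fold, SE 0.09, adjusted p = 3.02e-06, limma). *Bnip3l* went from 3.54, 3.36 and 3.46 to 4.28, 4.21 and 4.01. Its groups were also apart, by 0.72 (1.64-fold, SE 0.09, adjusted p = 5.20e-04, limma), and its other probe gave 0.63. *Fam162a*, a mitochondrial protein linked to cell death in hypoxia, rose from 4.13, 3.82 and 3.79 to 5.54, 5.39 and 5.34 (1.51, SE 0.11, adjusted p = 3.97e-05, limma).

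*Ddit4* (REDD1), which restrains mTORC1 signalling, rose from 4.20, 4.29 and 4.26 in WT cells to 5.57, 5.44 and 5.39 in IG27 cells (1.21, SE 0.06, adjusted p = 1.06e-05, limma). For *Ndrg1*, a stress-response gene, the WT arrays gave 3.44, 4.22 and 4.28 and the IG27 arrays 4.94, 4.95 and 4.72. Here too WT replicate 1 was the low array. The rise was 0.89 (SE 0.23, adjusted p = 0.0138, limma) with that spot and 0.62 (SE 0.09, adjusted p = 1.86e-03) without it. It was no longer called without IG27 replicate 1 (0.85, adjusted p = 0.0526, limma) or with slide row as a block (0.65, adjusted p = 0.144). *Higd1a*, a mitochondrial protein that stabilises the respiratory chain in hypoxia, had overlapping groups, with 5.84 to 6.0 in WT cells and 5.99 to 6.03 in IG27 cells. The 95% interval of its difference ran from -0.05 to 0.22 on the log2 scale (adjusted p = 0.215, limma).

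The carbonic anhydrases hydrate carbon dioxide to bicarbonate and protons and set the pH around hypoxic cells. *Car9*, a membrane-bound isoform used as a hypoxia marker in tumors, read -2.53, -2.37 and -2.43 in WT cells. In IG27 cells it read 0.62, 0.79 and 0.16, which puts every IG27 array above every WT array, with IG27 replicate 3 the lowest of its group. The rise was 2.97 (7.83-fold, SE 0.16, adjusted p = 1.20e-05, limma) with the brighter probe and 1.91 (SE 0.19) with the other one. *Car12*, its relative, was not well above background on any complete array, with readings of -8.21 to -7.61 in WT cells and -7.69 to -7.37 in IG27 cells.

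Of the 6 collagen-modifying enzymes, 3 rose, 1 was not called and 2 were too dim to test. *P4ha1* and *P4ha2* encode the catalytic subunits of collagen prolyl 4-hydroxylase, which makes the collagen triple helix stable. *P4ha1* rose from 0.33, 0.41 and 0.27 in WT cells to 1.89, 2.07 and 2.05 in IG27 cells (1.67, or 3.17-fold, SE 0.07, adjusted p = 4.10e-06, limma), and its other probe gave 1.93. *P4ha2* rose from -0.03, -0.08 and -0.09 to 1.94, 1.99 and 1.73 (1.96, or 3.88-fold, SE 0.08, adjusted p = 3.23e-06, limma). Both subunits stood over 1.4 log2 units clear of the WT arrays. The lysyl hydroxylase gene *Plod2*, whose product prepares collagen for cross-linking, rose from 0.44, 0.40 and 0.27 to 1.16, 1.22 and 1.01 (0.76, SE 0.08, adjusted p = 1.83e-04, limma). Its relative *Plod1* was not well above background on any complete array, at -8.04 to -7.55 in WT cells and -7.31 to -6.36 in IG27 cells.

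*Lox* and *Loxl2* encode lysyl oxidases, which form the cross-links between collagen chains. The brighter *Lox* probe read -6.64, -6.48 and -7.57 in WT cells and -5.41, -5.22 and -5.73 in IG27 cells, none well above background. The second *Lox* probe was well above background on 1 IG27 array, so *Lox* was not tested. *Loxl2* had overlapping groups with its brighter probe, at -2.98, -2.65 and -2.91 in WT cells and -2.49, -2.64 and -2.75 in IG27 cells. That difference of 0.22 was not called (95% interval -0.06 to 0.49, adjusted p = 0.128, limma). Its dimmer probe went from -5.32, -4.73 and -5.30 to -3.56, -3.59 and -3.82, a difference of 1.46 (SE 0.18, adjusted p = 4.32e-04 over all probes, limma). That probe was well above background on 2 WT arrays and passed the filter only through IG27 cells. The 2 probes of *Loxl2* thus disagreed, the dimmer one with WT readings near background. *Loxl2* was called with the mean of its probes (0.84).

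**Figure D3:**
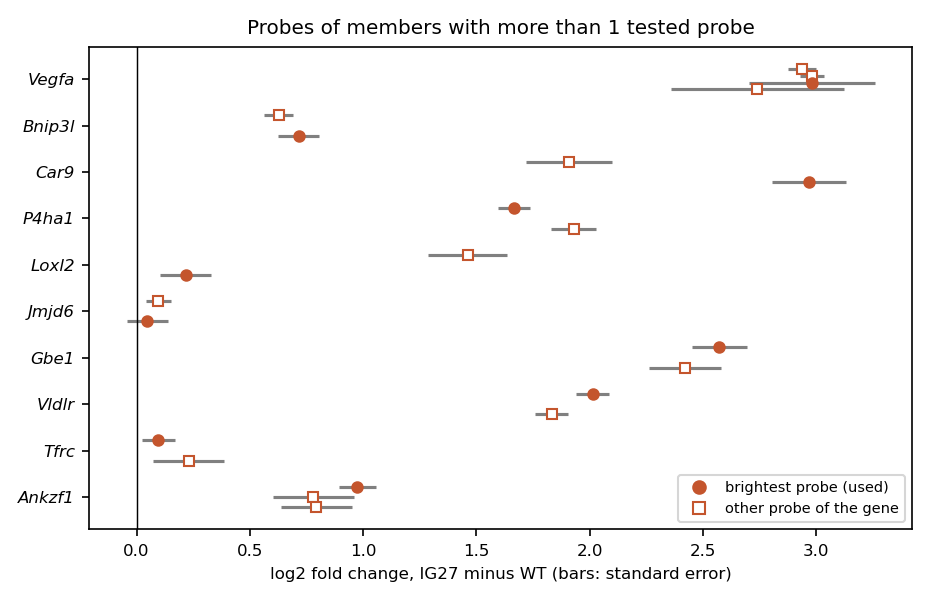
The log2 fold change of IG27 over WT cells (x axis, bars are 1 standard error from limma on 3 arrays a group) is shown for each probe of the 10 members with more than 1 tested probe (y axis); filled circles are the brightest probe, which was used, and open squares the others. The probes of *Vegfa*, *Gbe1*, *Vldlr* and *Bnip3l* lie close together, while those of *Loxl2* (0.22 and 1.46) and *Car9* (2.97 and 1.91) lie apart.

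The stanniocalcins are secreted glycoproteins that were first known for their control of calcium and phosphate. The *Stc2* probe was not well above background on any WT array, at -8.08, -7.86 and -8.34. It read -1.49, -1.53 and -1.59 in IG27 cells, which was at least 18.8-fold higher. *Stc1* was at background in both lines, with -8.09 to -7.56 in WT cells and -7.67 to -7.40 in IG27 cells.

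Of the 4 transcriptional and nuclear regulators, 2 rose. *Ankrd37*, an ankyrin repeat protein whose gene is a direct HIF1 target, read -3.39, -3.41 and -3.37 in WT cells and 0.19, 0.29 and 0.10 in IG27 cells. Its groups were tight and 3.58 apart on the log2 scale (12-fold, SE 0.06, adjusted p = 1.50e-07, limma). *Bhlhe40* (DEC1), a transcriptional repressor of the circadian and hypoxia responses, rose from -0.30, -0.27 and -0.32 to 1.13, 1.24 and 1.18 (1.48, SE 0.05, adjusted p = 1.57e-06, limma). *Cited2* competes with HIF1A for the coactivators CBP and p300. Its WT arrays read 1.76, 2.27 and 2.42 and its IG27 arrays 2.64, 2.49 and 2.59, and the difference of 0.42 was not called (SE 0.17, 95% interval -0.002 to 0.84, adjusted p = 0.0697, limma). Without the spot of WT replicate 1, again the low one, it was 0.22 with an SE of 0.08 and an adjusted p of 0.0478 (limma). *Jmjd6*, an oxygen-dependent hydroxylase, differed by 0.05 (95% interval -0.17 to 0.27, adjusted p = 0.657, limma), with overlapping arrays.

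All 3 genes of glycogen storage rose. *Ppp1r3c* encodes PTG, the scaffold that brings protein phosphatase 1 to glycogen and so activates glycogen synthase. It was not well above background on any WT array (-8.06, -7.80 and -8.32) and read -1.46, -1.54 and -1.93 in IG27 cells, at least 17.5-fold higher. *Gbe1*, the branching enzyme, rose from -1.35, -1.37 and -1.16 to 1.36, 1.44 and 1.04, by 2.57 on the log2 scale (5.95-fold, SE 0.12, adjusted p = 6.51e-06, limma), and its other probe gave 2.42. *Gys1*, the glycogen synthase outside the liver, rose by 0.46 (SE 0.07, adjusted p = 1.31e-03, limma). All IG27 arrays lay above all WT arrays for each of the 3 genes. Groups were fully separated, in 1 direction or the other, for 75.7% of all genes tested. *Ppp1r3c* passed the filter only through IG27 cells, which favours such a separation.

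Of the genes of lipid uptake and storage, *Vldlr*, the receptor for very low density lipoprotein, rose from 1.06, 0.99 and 0.91 in WT cells to 3.00, 3.09 and 2.90 in IG27 cells. The rise was 2.01 on the log2 scale (4.04-fold, SE 0.07, adjusted p = 1.86e-06, limma), with 1.83 from its other probe. *Hilpda*, a lipid droplet protein that inhibits the lipase ATGL, rose by 0.51 (SE 0.06, adjusted p = 3.34e-04, limma). *Tfrc*, the transferrin receptor for iron uptake, had overlapping arrays in the 2 lines and a difference of 0.10 (95% interval -0.08 to 0.27, adjusted p = 0.271, limma).

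Among the remaining members, *Selenbp1*, which encodes a selenium-binding protein with methanethiol oxidase activity, rose from -2.46, -2.71 and -2.54 to 2.71, 2.70 and 2.30. No other member detected in both lines changed as much, the rise being 5.14 on the log2 scale (35.3-fold, SE 0.13, adjusted p = 5.52e-07, limma). *Ankzf1*, which acts in ribosome-associated quality control, rose by 0.98 (SE 0.08, adjusted p = 7.23e-05, limma), with 0.78 and 0.79 from its other probes. *Mif*, a cytokine that inhibits macrophage migration, rose by 0.35 (SE 0.05, adjusted p = 1.29e-03, limma). *Tmem45a*, a membrane protein, was not well above background on any complete array of either line.

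The arrays within a line did not rank the members alike. Of the 24 members that rose, 19 had their lowest IG27 value on replicate 3 (79.2%), whereas that array was the lowest of its group for 38.1% of all genes called higher. Replicate 2 held the highest value for 14 of them (58.3%, against 25.5%). These gaps were small beside the difference between the lines, with a median SD over the members tested of 0.10 in WT cells and 0.11 in IG27 cells. The 30 members tested lie on 15 chromosomes, and each differed by more than the median of its own chromosome, *Tfrc* by only 0.004 and *Jmjd6* by 0.17. Of the members detected in both lines, *Selenbp1*, *Adm* and *Ankrd37* ranked 217, 448 and 465 among the 14898 estimated changes, counted from the largest rise down.

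In the wider hypoxia response, genes moved both ways. Of 29 tested genes on a list of other hypoxia-induced genes, 16 rose (55.2%, against 30.5% of all genes) and 9 fell (31.0%, against 40.0%), with a median of 0.41. *Ak4*, a mitochondrial adenylate kinase, rose most, by 7.50 on the log2 scale (SE 0.07, adjusted p = 5.49e-08, limma). *Nt5e* (CD73), which makes extracellular adenosine, was not well above background on any WT array and was at least 9.19-fold higher in IG27 cells. The creatine transporter gene *Slc6a8* fell by 1.16 (SE 0.05, adjusted p = 3.66e-06, limma). Of 19 glycolytic HIF1 targets, 13 were higher (68.4%) and 3 lower (15.8%), with a median of 0.60. *Pfkp* and *Aldoc* had the largest rises (5.90 and 2.86), and *Slc2a3* and *Pfkfb3* had the largest falls (-3.08 and -0.92; limma adjusted p at most 3.85e-05 for each of the 4).

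**Figure D4:**
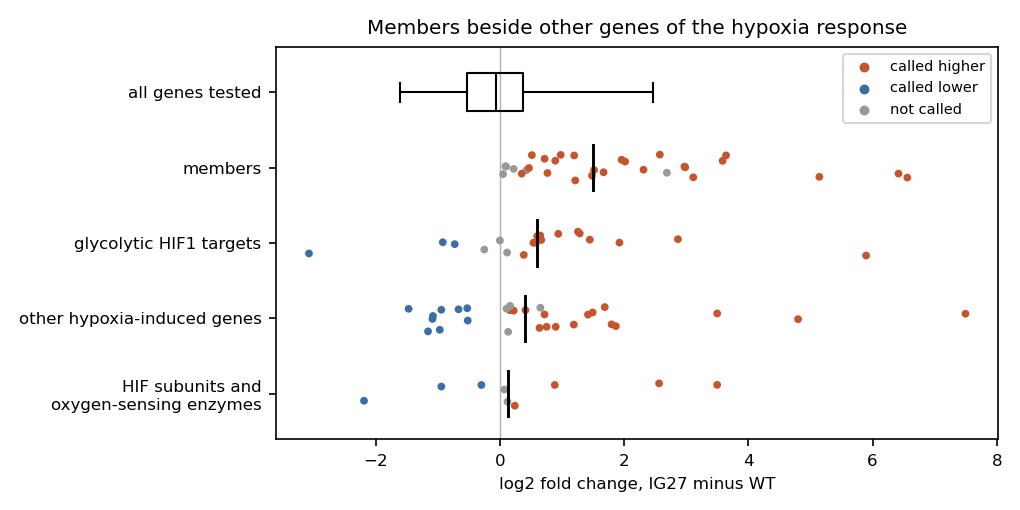
The log2 fold change of IG27 over WT cells (x axis) is shown as 1 point per tested gene for the members and for 3 other lists (y axis), coloured by call, with the median as a black bar; the box gives the quartiles and median of all genes tested, with whiskers at the 5th and 95th percentiles. The members have no blue point and a median of 1.5, whereas the glycolytic targets (0.60), the other hypoxia-induced genes (0.41) and the oxygen-sensing genes (0.12) each hold points on both sides of 0. *Egln1* and *Egln3* stand in both of the last lists.

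Of the genes that sense oxygen and form HIF, 4 of 9 tested were higher (44.4%, against 30.5% of all genes) and 3 lower (33.3%, against 40.0%). *Hif1a* rose by 0.88 (SE 0.05, adjusted p = 9.76e-06, limma), and *Epas1*, which encodes HIF2A, rose by 2.56 (SE 0.08, adjusted p = 1.04e-06, limma). The prolyl hydroxylase gene *Egln3*, itself a HIF target, rose by 3.50 (SE 0.06, adjusted p = 1.78e-07, limma), while *Egln1* fell by 0.95 (SE 0.08, adjusted p = 8.99e-05, limma). *Arnt2* fell by 2.19 (SE 0.09, adjusted p = 3.38e-06, limma).

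The size of several changes depended on the reading of dim probes. With normexp background correction on the 5 complete arrays, the log2 fold change was 3.01 for *Stc2*, 2.64 for *Ppp1r3c*, 2.19 for *Adm*, 0.73 for *Edn1* and 0.77 for *Angptl4*. Each was lower by over 1.5 times, and *Adm* and *Angptl4*, detected in both lines, were still called. For *Stc2*, *Ppp1r3c* and *Edn1* these are smaller folds than the bounds given above (at least 18.8, 17.5 and 3.00). Those bounds hold only for the background correction of the deposited signal. With slide row as a block, a fit that rests on WT replicate 2 since only that WT array shared a row with IG27 cells, the rise of *Edn1* was 1.80.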

How the data were processed

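Total RNA from 3 WT and 3 IG27 samples was labelled with Cy3 and hybridised to Agilent SurePrint G3 mouse arrays on 1 slide with 1 scan time. The labels name an RNeasy kit and the methods a Maxwell kit for the RNA. The deposited scanner files hold gProcessedSignal, an intensity that the authors' Feature Extraction software corrected for background (10.7.3.1 per the file headers, 9.1 per the labels). The scanner file of IG27 replicate 2 held 285 of 62976 spots, so its values, without detection flags, came from the deposited series table, whose intensity values equalled the scanner values for 255 of 255 compared probes (relative tolerance 0.0001). That table exchanges WT replicates 2 and 3, and the labels of the scanner files were followed.

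Spots with outlier flags were left out, values were taken as log2 and each array's 75th percentile was subtracted. Of 56605 probes, 32994 were named through their RefSeq accession. A gene was tested when all complete arrays of 1 group or both detected a probe well above background, and its brightest such probe was used. Groups were compared with limma (version 3.58.1, R 4.3.3; lmFit and eBayes, two-sided) with Benjamini-Hochberg correction at 0.05. The fit was checked on simulated data. Each bound (at least N-fold) sets the mean of the bright group against the lowest signal well above background on each dim array. It holds for gProcessedSignal with its own background correction. Blocks of 16 by 20 spots were marked where at least 10% of compared probes differed by over 0.5 from the other arrays of the group.

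The members and lists were chosen with earlier results of these data known. Values in every array are given for called members with at least a 2-fold change and for related pairs, and of each other list the 2 largest rises and 2 largest falls are named, with *Hif1a* and *Epas1*. The values of 1 gene that this rule names are not reported here. *Kdr*, *H3f3a*, the member ranks and the order of arrays were added after the values were seen. Same-numbered WT and IG27 arrays did not deviate together (r = 0.012, 0.039 and 0.076), so no pairing was used. Alternatives were quantile normalization, no filter, a filter on both groups, outlier spots kept, the mean of probes, a mean-variance trend, blocks for replicate number and slide row, the 5 complete arrays, normexp with an offset of 50, an unadjusted threshold, each array left out in turn and, chosen after seeing the data, WT replicate 1 without its marked blocks.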

Additional observations from a re-analysis of the deposited data

How the results depend on the processing

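The count of members that were higher stayed between 21 and 26 in every alternative and no member was lower in any. Their median log2 fold change of 1.5 was 1.21 with no filter (35 members), 1.20 with the filter on both groups (26 members), 1.32 with the slide row as a block and 1.20 with normexp. Leaving out each array in turn gave 23 to 26 members higher, 0 lower and a median of 1.46 to 1.55. In the same fits the glycolytic targets had 13 higher and 3 to 4 lower, the other hypoxia-induced genes 14 to 18 higher and 8 to 9 lower, and the oxygen-sensing genes 4 to 5 higher and 3 lower. Of the 30 members, 23 kept their direction and their side of the threshold in all settings in which they were tested. Estimates close to 0 turned for *Tfrc* with normexp (-0.020) and for *Jmjd6* without IG27 replicate 1, its values running from -0.022 to 0.115 as each array was left out; the cause was not tested. *Ndrg1* lost its call in 2 settings, and *Cited2*, *Higd1a*, *Jmjd6*, *Loxl2* and *Nos2*, not called, each passed the threshold in at least 1. The replicate numbers as a block gave 24 members higher and 0 lower and changed no other call of a member. *Car12*, *Plod1*, *Lox*, *Stc1* and *Tmem45a* were too dim to test, so their changes were not measurable here. The median of all genes moved from -0.07 to 0.12 with no filter.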
